A study of Sus scrofa with 26 samples.

Results

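The phagocyte NADPH oxidase is an enzyme complex that moves electrons from NADPH to oxygen and so makes superoxide. Its membrane core pairs the catalytic subunit gp91phox, encoded by CYBB, with the small stabilising subunit p22phox, encoded by CYBA. Cytosolic subunits, among them the organiser p47phox (NCF1) and its partner p40phox (NCF4), join the core on activation together with the GTPase RAC2. CYBB, NCF1, NCF4 and RAC2 are mainly genes of blood-derived cells, which in fat tissue are largely macrophages, whereas CYBA is transcribed in many cell types and its product also stabilises other oxidases of the NOX family. CYBA is a gene that the study itself named for subcutaneous adipose tissue from these same samples, so that its level here is not independent evidence for that choice.

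Probes for these 5 genes were taken from one-colour arrays of subcutaneous adipose tissue (SCAT, backfat), 1 castrated pig per array and 26 arrays in all. A probe was retained when its symbol, its accession or its description in the scanner files named one of the genes, and each probe was kept apart. The rule gave 9 probes, among 60305 probes for 11574 named genes. The pigs were Creole, Large White (LW) or their cross (F1), kept at thermoneutrality (TN, 24 °C; 3 Creole, 4 F1 and 4 LW pigs) or exposed to heat stress (HS; 5 pigs of each breed). The labels give the heat as 30 °C, the text of the series as 32 °C for 5 days. TN pigs were slaughtered before the temperature rose, so that temperature, day of slaughter and age cannot be told apart. The study also reports that pigs ate less in the heat. It had no pair-fed TN group, so lower feed intake cannot be told apart from temperature either. The labels do not say which pigs shared a litter, sire or pen.

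Levels are log2 of the quantile-normalized median intensity of the spot. Between 41313 and 46184 probes were well above background per array, no spot was saturated, and the 26 arrays lay on 5 slides, each with both temperatures. All 10 adipocyte markers of a list that includes ADIPOQ, PLIN1 and LEP were well above background on enough arrays to be tested. In whole tissue, fewer cells of a type and less RNA per cell cannot be told apart.

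Of the 9 probes, 8 were well above background on at least 8 arrays and were tested, so that every gene had at least 1 tested probe. The exception was NCF1 probe O2462, which was well above background on 5 of 26 arrays and on none of the LW arrays. CYBB appears in the files under the symbol GP91-PHOX. A further 5 probes carry no symbol of these genes, but their own ID holds an accession of one of them or their sequence is identical to a probe of the rule. They are reported beside the others as further probes, and 4 of them were tested.

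The sequences matter most for CYBA, whose probes in the rule read opposite strands. Probe A_72_P306223 is the exact reverse complement of A_72_P035581 over all 60 bases. The first 30 bases of A_72_P035581 and the last 30 of A_72_P306223 are shown 5′ to 3′, with 12 bases in capitals that are the reverse complement of each other, followed by the first 30 bases of the further CYBA probe, which shares 56 bases with A_72_P035581 on the same strand.
A_72_P035581: CTGTCATCTTTCtagggggccttggggtct
A_72_P306223: agaccccaaggccccctaGAAAGATGACAG
further CYBA probe: catctttctagggggccttggggtcttggt

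For the other genes, the probes that share no stretch with a second probe of the rule are shown whole and with no capitals, because they are the second measurement of CYBB and NCF4 and the only tested probe of the rule for NCF1. The CYBB probe A_72_P574634 shares no run longer than 5 bases, on either strand, with the other CYBB probes. The sequence of NCF4 probe O9600 was printed a second time under another ID, which gives a repeat of the same measurement.
CYBB A_72_P574634: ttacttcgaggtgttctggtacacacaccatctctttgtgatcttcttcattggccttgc
NCF1 A_72_P146491: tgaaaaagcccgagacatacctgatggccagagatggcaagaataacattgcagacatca
NCF4 O9600: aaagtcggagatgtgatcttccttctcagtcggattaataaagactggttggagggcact

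CYBA rose with heat over the 3 breeds together on probe A_72_P035581, and its mean was higher in HS than at TN in each breed. In Creole pigs its level was 12.93, 13.08 and 13.08 at TN, against 13.30, 13.31, 13.48, 13.50 and 13.53 in HS, with no overlap. In F1 pigs it was 12.93, 12.98, 12.98 and 13.08 at TN, against 13.26, 13.27, 13.42, 13.45 and 13.55 in HS, again with no overlap. In LW pigs it was 12.98, 13.00, 13.31 and 13.53 at TN, against 13.45, 13.66, 13.70, 13.78 and 13.80 in HS. Here a single TN pig lay within the HS range, and only the lowest HS pig lay below it. All 15 HS arrays were above the TN mean of their breed, and 14 of 15 were above every TN array of it. Over all tested probes, every HS array exceeded every TN array in 2.75% of probes for Creole, 3.16% for F1 and 3.02% for LW.

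**Figure D1:**
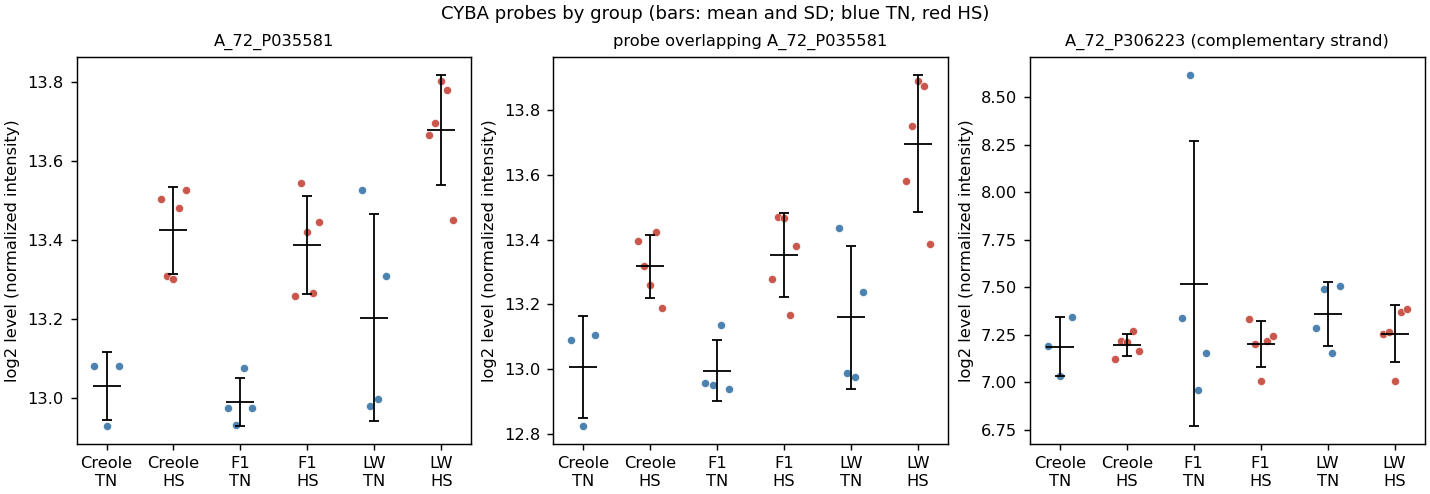
Log2 level of the 3 CYBA probes (y axis of each panel, own scale) in the 6 breed by temperature groups; each point is 1 pig, and the bars are the mean and SD. On A_72_P035581 and on the probe that overlaps it, HS pigs sit above TN pigs in each breed apart from 1 high TN pig in LW, whereas the complementary-strand probe A_72_P306223 shows no such step and has 1 TN pig at 8.62.

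With breed held fixed, CYBA was higher in HS by 0.42 on the log2 scale (SE 0.056, 95% interval 0.31 to 0.54; 1.34-fold; adjusted p = 0.000126, limma over all tested probes). The level was 13.08 ± 0.18 (SD, n = 11) at TN and 13.50 ± 0.18 (SD, n = 15) in HS. By p-value this probe ranked 23 among 44703 tested probes, while 730 probes had larger rises. The further CYBA probe, which overlaps it by 56 bases and so is not an independent site, rose by 0.41 (SE 0.064, adjusted p = 0.000348). Within the 5 slides, the HS minus TN difference of breed-centred levels of A_72_P035581 was between 0.37 and 0.56, positive on each slide.

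Probe A_72_P306223, on the complementary strand, did not rise. Its level was 7.37 ± 0.45 (SD, n = 11) at TN and 7.22 ± 0.11 (SD, n = 15) in HS, and HS minus TN was -0.15 (SE 0.12, 95% interval -0.39 to 0.10, adjusted p = 0.457). Without F1 TN pig 2 the difference was -0.02 (adjusted p = 0.863). In F1 at TN the 4 values were 6.96, 7.16, 7.34 and 8.62, so that 1 pig stood well apart from the rest of that group and from all other arrays. The median intensity of the spot was 4.94 times that of the negative controls of its array (range 4.30 to 14.3), and for A_72_P035581 the same measure was 339 times (range 245.5 to 445.7). The change of A_72_P035581 exceeded that of A_72_P306223 by 0.57 log2 (p = 4e-05, adjusted p = 0.0004 over 10 probe pairs, two-sided permutation test within breeds, n = 26), and by 0.44 without F1 TN pig 2. Between pigs of the same group the probes of opposite strand did not vary together (r = -0.17, rho = -0.23, adjusted permutation p = 0.247 and 0.321, n = 26; r = -0.14 without the 2 pigs farthest from the median, -0.11 within TN and -0.46 within HS). The overlapping probes of the same strand did (r = 0.85, rho = 0.81, adjusted permutation p = 7.14e-05 and 0.000143, n = 26; r = 0.79 without 2 pigs, 0.95 within TN and 0.77 within HS). A mean over both probes of the rule was 0.14 higher in HS (limma, adjusted p = 0.145). The call is thus lost if the complementary-strand probe is averaged in. That mean joins probes that read opposite strands, so it is not a mean of repeat measurements of the same strand.

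CYBB, the catalytic partner of CYBA, was not called. On probe A_72_P147021 the TN levels were 10.37, 10.64 and 10.66 in Creole, from 10.99 to 11.59 in F1, and 10.53, 10.74, 10.80 and 10.92 in LW. The HS levels ranged from 10.58 to 11.31 in Creole, from 10.80 to 11.36 in F1 and from 10.76 to 11.48 in LW. The groups overlapped in each breed, and 12 of 15 HS arrays were above the TN mean of their breed. HS minus TN was 0.18 (SE 0.10, 95% interval -0.03 to 0.39, adjusted p = 0.278). The second probe, A_72_P574634, gave 0.23 (SE 0.11, 95% interval 0.01 to 0.46, adjusted p = 0.163; 0.40 and adjusted p = 0.0676 with background-subtracted signals scaled to the 75th percentile), and the further probe gave 0.19 (adjusted p = 0.317). Both probes of the rule, which share no sequence, followed each other between pigs of the same group (r = 0.83, rho = 0.85, adjusted permutation p = 6.67e-05 for each, n = 26; r = 0.78 without 2 pigs, 0.91 within TN and 0.80 within HS).

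NCF1, the organiser subunit, was close to background on its tested probe A_72_P146491, with a spot 2.41 times as bright as the negative controls (median, range 1.68 to 3.01). Its level was 6.03 ± 0.20 (SD, n = 11) at TN and 6.23 ± 0.23 (SD, n = 15) in HS. On this probe the Creole values were 5.76, 6.01 and 6.09 at TN and 6.13, 6.21, 6.23, 6.41 and 6.46 in HS, without overlap, whereas the groups overlapped in F1 and in LW. HS minus TN was 0.19 (SE 0.085, 95% interval 0.02 to 0.37), which did not pass the threshold (adjusted p = 0.139). With background-subtracted signals scaled to the 75th percentile it was 0.42 (adjusted p = 0.0918), and after normexp 0.13 (adjusted p = 0.183). On a further NCF1 probe the groups overlapped in Creole too, with 3 of 5 HS arrays above every TN array. This probe, 39.3 times as bright as the negative controls (median), gave 0.18 (SE 0.14, adjusted p = 0.426) and varied with the first between pigs of the same group (r = 0.77, rho = 0.73, adjusted permutation p = 7.5e-05 and 0.000262, n = 26; r = 0.67 without 2 pigs, 0.71 within TN and 0.81 within HS).

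NCF4, which holds p40phox, and RAC2, the GTPase of the active complex, gave estimates near 0. The level of NCF4 probe A_72_P130551 was 11.33 ± 0.28 (SD, n = 11) at TN and 11.34 ± 0.26 (SD, n = 15) in HS, and HS minus TN was 0.02 (SE 0.10, 95% interval -0.20 to 0.23, adjusted p = 0.941). Probe O9600 gave -0.09 (SE 0.12, adjusted p = 0.682). The level of RAC2 was 11.08 ± 0.17 (SD, n = 11) under TN and 11.14 ± 0.31 (SD, n = 15) under HS. HS minus TN was 0.05 (SE 0.097, 95% interval -0.15 to 0.25, adjusted p = 0.78). The identical sequence printed under 2 IDs for NCF4 differed between its spots by 0.02 ± 0.12 (SD, n = 26), a spread that holds the error of both spots at that brightness.

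**Figure D2:**
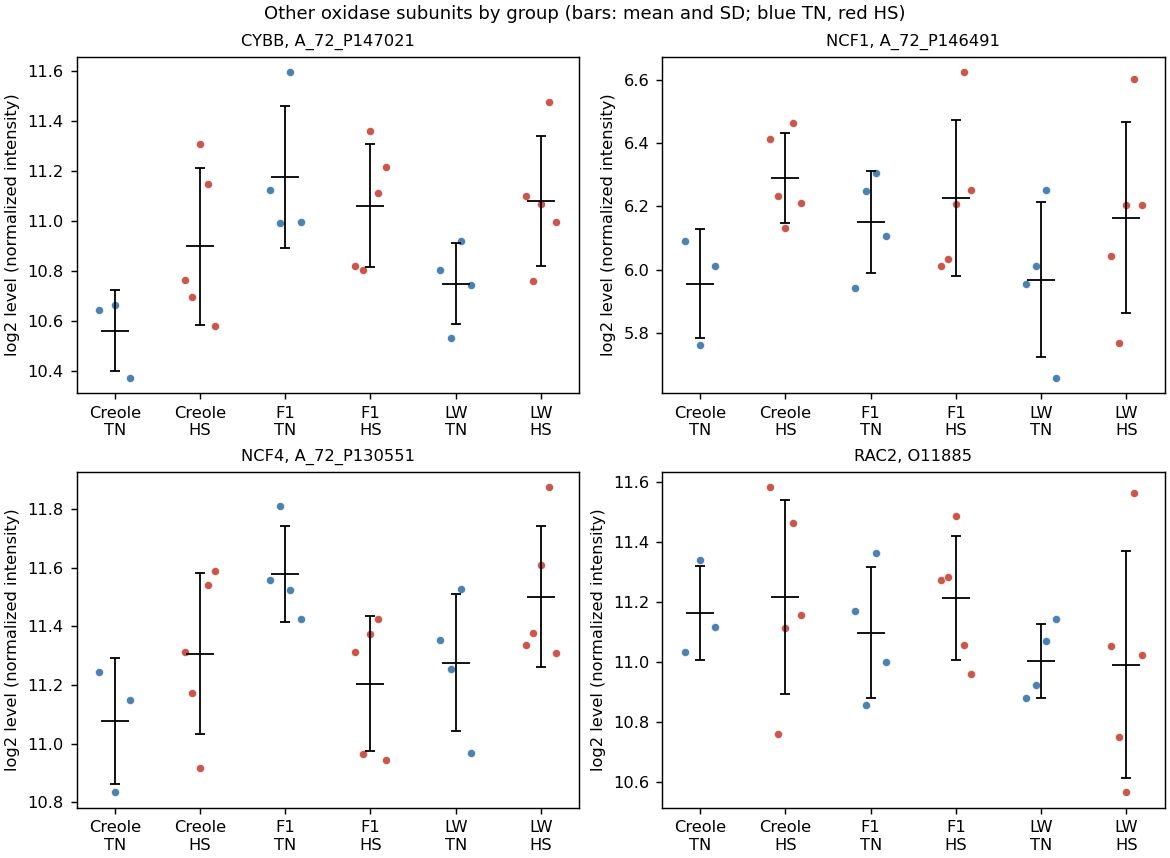
Log2 level of CYBB, NCF1, NCF4 and RAC2, each on the tested probe of the rule with the highest level (y axis of each panel, own scale) in the 6 groups; each point is 1 pig, and the bars are the mean and SD. HS and TN pigs overlap in each breed except for this dim NCF1 probe in Creole, and the F1 pigs at TN hold the highest group mean for CYBB (11.18) and NCF4 (11.58).

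**Figure D3:**
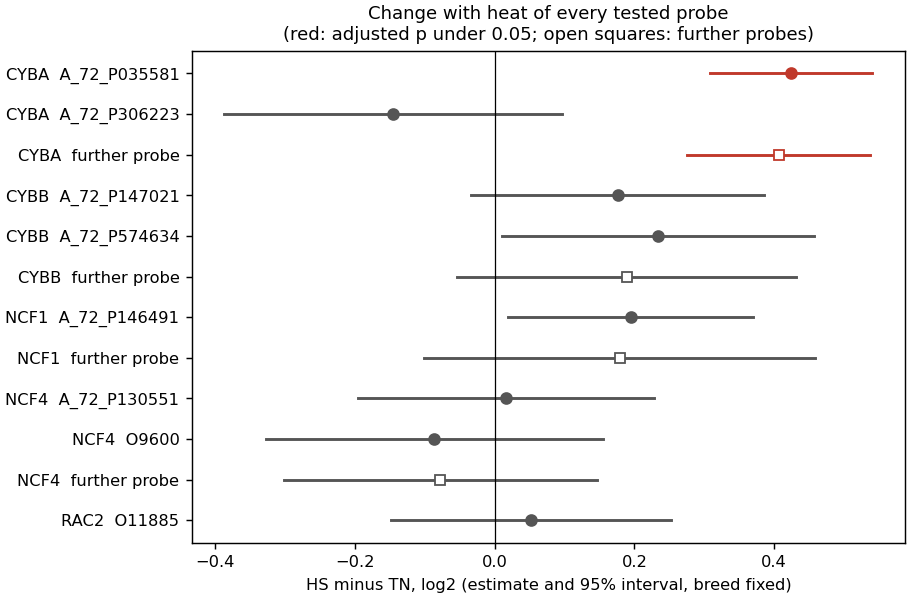
HS minus TN on the log2 scale (x axis), with its 95% interval and breed held fixed, for the 12 tested probes (y axis); circles are probes of the rule, open squares the further probes, and red marks an adjusted p under 0.05. Only A_72_P035581 and the probe that overlaps it are past the threshold, at 0.42 and 0.41.

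Counted over the probes of the rule, 1 of 8 passed the threshold for HS minus TN and it rose, beside 12.2% of all tested probes past it in either direction and 5.17% that rose. The count is thus near the background, and the result concerns CYBA rather than the set. The median change of the 8 probes was 0.11 log2, against 0.0024 over all tested probes. An unadjusted p under 0.05 was found for 3 of 8, beside 26.9% of all tested probes. The change of CYBA was compared directly with that of each other gene by the within-array difference of the highest-level probe of the rule for each gene, a comparison chosen after the values had been seen. CYBA rose more than NCF4 by 0.41 (adjusted p = 0.00458) and more than RAC2 by 0.37 (adjusted p = 0.00458, two-sided permutation tests within breeds, 4 comparisons, n = 26). The differences from CYBB, 0.25, and from NCF1, 0.23, each had an adjusted permutation p of 0.0442 (n = 26). With background-subtracted signals scaled to the 75th percentile, the difference from CYBB was 0.17 (permutation p = 0.121) and that from NCF1 was -0.10 (permutation p = 0.553), and leaving out 1 array at a time took each above 0.05 in 14 of 26 cases (differences 0.20 to 0.29 and 0.17 to 0.27 over all 26 omissions). The brighter further probes of CYBB and NCF1 were not used in these comparisons, and whether CYBA rose more than CYBB and NCF1 is not settled by these arrays.

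Within breeds, the change of CYBA was 0.39 in Creole (SE 0.11, adjusted p = 0.163), 0.40 in F1 (SE 0.098, adjusted p = 0.0662) and 0.48 in LW (SE 0.098, adjusted p = 0.0179). Among the 8 probes, none was called in Creole, none in F1 and 1, that of CYBA, in LW, beside 0.0716%, 0.421% and 1.5% of all tested probes (limma, 6 group means). The call in LW was lost without LW HS pig 4, LW TN pig 2 or LW TN pig 3 (0.45, 0.40 and 0.41, adjusted p = 0.0506, 0.087 and 0.0721) and with slide as a fixed block (0.47, adjusted p = 0.0669), with changes close in size to that over all pigs. F1 passed without LW TN pig 1 or Creole HS pig 5 (adjusted p = 0.0449 and 0.0497) and after background correction by normexp (adjusted p = 0.0486). The limma interaction did not show the changes to differ between breeds (adjusted p = 0.97).

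NCF4 and CYBB had negative estimates in F1 and positive ones in Creole and LW, except that CYBB A_72_P574634 was at 0.04 in F1 with the scaling to the 75th percentile, and leaving out single pigs turned CYBB in F1 on both probes and NCF4 O9600 in LW. For CYBB they were -0.11, 0.34 and 0.33 on A_72_P147021 and -0.04, 0.33 and 0.42 on A_72_P574634 (F1, Creole, LW), none of which passed, and the interaction did not pass either (adjusted p = 0.897 for both). In F1, NCF4 probe O9600 was at 7.95, 8.08, 8.10 and 8.43 at TN and at 7.32, 7.44, 7.58, 7.76 and 7.85 in HS, without overlap. Every HS array lay below every TN array in F1 for 3.72% of tested probes. The change was -0.55 in F1 (SE 0.17, adjusted p = 0.115), 0.24 in Creole (SE 0.18, adjusted p = 0.663) and 0.10 in LW (SE 0.17), none of which passed. On the other NCF4 probe, A_72_P130551, which shares no run over 6 bases with it, the changes were -0.37, 0.23 and 0.23 in the same order. No HS array of F1 was above the TN mean of its breed on either probe. The unadjusted interaction p was 0.00739 for O9600 and 0.0138 for A_72_P130551, but neither passed over all tested probes (limma, adjusted p = 0.897), where 1 probe, or 0.00224%, was called. None of the 8 probes was called, and 2 had an unadjusted p under 0.05.

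The summed intensity of 15 macrophage markers, given in units of 1000, moved in the same directions, from a median of 36.2 to 30.5 in F1, from 28.4 to 37.3 in Creole and from 30.0 to 37.6 in LW (TN to HS), and its part in the NCF4 values was not tested. The ranges of this sum overlapped in F1 (31.2 to 42.4 at TN, 27.0 to 40.5 in HS) and in LW (26.8 to 39.7 and 27.8 to 43.7), but not in Creole (20.7 to 31.8 and 32.0 to 48.2), where every HS array was higher. The mean of CYBA was higher in HS in each breed, and the part of this sum in its values was not tested either.

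**Figure D4:**
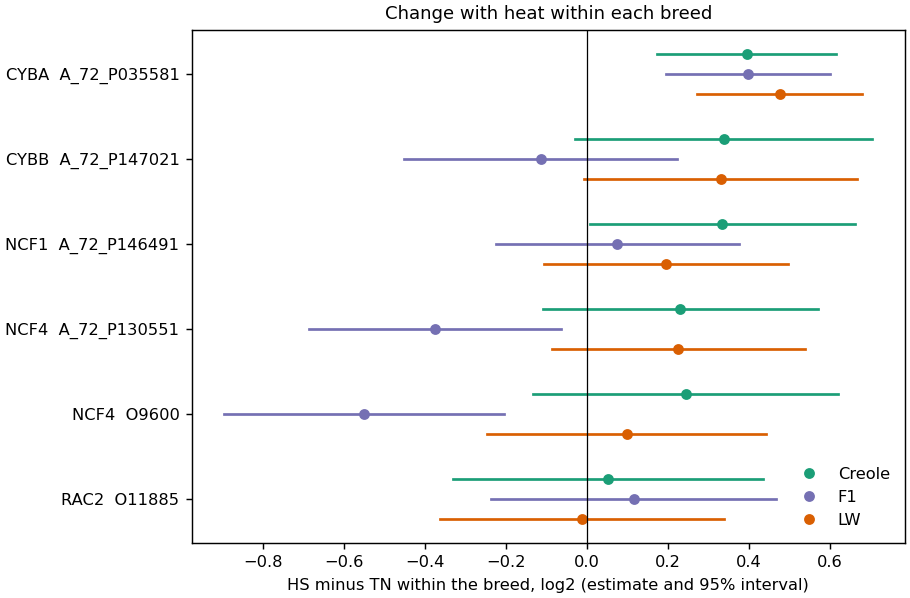
HS minus TN within each breed on the log2 scale (x axis), with the 95% interval, for 6 probes of the 5 genes (y axis); colours mark Creole, F1 and LW. The 3 estimates of CYBA lie between 0.39 and 0.48, whereas NCF4 and CYBB lie below 0 in F1 and above it in Creole and LW.

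Between breeds, with temperature held fixed, CYBA was higher in LW than in Creole by 0.22 (SE 0.069, 95% interval 0.08 to 0.36; 1.17-fold; adjusted p = 0.0328). It was the only 1 of the 8 probes called for LW minus Creole, beside 14.3% of all tested probes, so that the share among the members was no larger than the background. The call was lost without any 1 of 8 pigs (Creole HS 2 and 3, Creole TN 2, LW HS 2, 3 and 4, LW TN 1 and 4), with differences from 0.18 to 0.22, and also with slide as a fixed block (0.19, adjusted p = 0.0701) and with the scaling to the 75th percentile (0.12, adjusted p = 0.219). The further CYBA probe gave 0.29 (adjusted p = 0.0159). For any difference among breeds, 2 of 8 probes were called, beside 11.3% of all tested probes, namely CYBA A_72_P035581 (adjusted p = 0.0227) and CYBB A_72_P574634 (adjusted p = 0.0422). The call for CYBA was lost without LW HS pig 3, LW HS pig 4 or LW TN pig 1 (adjusted p = 0.0528, 0.0511 and 0.0525) and with the scaling to the 75th percentile (adjusted p = 0.122). For this CYBB probe the means were 6.66 ± 0.33 (SD, n = 8) in Creole, 7.04 ± 0.25 (SD, n = 9) in F1 and 6.61 ± 0.33 (SD, n = 9) in LW, so that F1 was highest. On the other CYBB probe the same test gave an adjusted p of 0.14, and the call for A_72_P574634 was lost with normexp (adjusted p = 0.0697), with no filter on dim probes (adjusted p = 0.0564) and in 15 of 26 single-pig omissions. F1 minus the mid-parent mean was 0.41 for A_72_P574634 (SE 0.11, adjusted p = 0.2), 0.27 for A_72_P147021 (SE 0.11, adjusted p = 0.465) and -0.15 for CYBA (SE 0.059, adjusted p = 0.469). None of the 8 probes passed for that contrast, beside 0.00671% of all tested probes.

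Ordered by group mean, CYBA ran from F1 TN (12.99 ± 0.06, SD, n = 4), Creole TN (13.03 ± 0.09, SD, n = 3) and LW TN (13.20 ± 0.26, SD, n = 4) to F1 HS (13.39 ± 0.12, SD, n = 5), Creole HS (13.42 ± 0.11, SD, n = 5) and LW HS (13.68 ± 0.14, SD, n = 5). Of the neighbours in this order, only Creole HS and LW HS were farther apart, by 0.25, than the larger of their SDs. For CYBB, on A_72_P147021, the order ran from Creole TN (10.56 ± 0.16, SD, n = 3) over LW TN, Creole HS, F1 HS and LW HS to F1 TN (11.18 ± 0.29, SD, n = 4), and only the gap of 0.19 between Creole TN and LW TN exceeded the larger SD. No neighbouring groups were that far apart for NCF1, NCF4 or RAC2, whose group means spanned 5.96 to 6.29, 11.08 to 11.58 and 10.99 to 11.21.

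Between pigs of the same group, with each gene on its highest-level probe of the rule, NCF1 and NCF4 varied together (r = 0.66, rho = 0.61, adjusted permutation p = 0.0141 and 0.0348 over 10 pairs of genes, n = 26; r = 0.60 without the 2 pigs farthest from the median, 0.81 within TN and 0.59 within HS). CYBB and NCF1 gave r = 0.44 and rho = 0.43, which did not pass (adjusted permutation p = 0.184 and 0.226, n = 26; r = 0.54 without 2 pigs, 0.25 within TN and 0.53 within HS). CYBB and RAC2 gave r = 0.45 and rho = 0.35 (adjusted permutation p = 0.202 and 0.429, n = 26; r = 0.48 without 2 pigs, 0.69 within TN and 0.39 within HS). The values of r between CYBA and the other 4 genes lay between -0.06 and 0.13, with an adjusted permutation p of 0.812 in each case (n = 26). The rho of these 4 pairs lay between 0.02 and 0.16.

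The 3 named genes most like each member over the 26 arrays were taken among 9962 genes, each at its highest-level probe, and no gene was named for more than 1 member. For CYBA they were C14H1orf198, KIF1A and PMP22, with r of 0.88, 0.86 and 0.86, and of 0.63, 0.53 and 0.50 once group means were removed. Their HS minus TN was 0.28, 0.62 and 0.40, which the choice by r over both temperatures favours, since CYBA itself is higher in HS. For NCF4 they were the macrophage scavenger receptor CD163, the complement gene C1QA and the mannose receptor MRC1 (r = 0.80, 0.78 and 0.75). For NCF1 they were the complement gene C1QC, the cytokine IL10 and AIF1, a macrophage and microglia gene (r = 0.76, 0.76 and 0.73). For RAC2 they were CORO1A, an actin-binding gene of white blood cells, the myosin MYO1F and LOC100626276 (r = 0.88, 0.84 and 0.84), and for CYBB they were STK17A, GMFG and FGF13 (r = 0.69, 0.68 and 0.67). Without the group means, r for these 12 genes lay between 0.65 and 0.90. The genes were picked as the largest of many correlations, and arrays of 1 pig share normalization, so these values are a description.

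The cell marker lists give the setting for these values, with 12.2% of all tested probes called for HS minus TN as the background of each count. Of the 15 macrophage markers, among them CD163, CD14, CSF1R and VSIG4, none passed for HS minus TN, with a median change of 0.16 beside 0.0024 over all tested probes. All of them but CD68, at -0.02, had positive estimates. The summed intensity of the 15 markers ranged from 20.7 to 42.4 at TN and from 27.0 to 48.2 in HS. Of 8 neutrophil markers none passed (median change 0.14, sums from 33.0 to 81.6 at TN and from 24.2 to 73.2 in HS), although the median of the sums was lower in HS in each breed, from 60.6 to 44.4 in F1, from 49.0 to 38.2 in Creole and from 66.2 to 44.5 in LW (TN to HS). The ficolin gene FCN2, at a log2 level of 15.36, weighs most in this sum and had an HS minus TN of -0.50 (adjusted p = 0.0979), while 6 of the 8 markers had positive estimates, so the sum is not a measure of the list as a whole. MPO, a defining enzyme of neutrophil granules, was not above background on enough arrays to be tested. Of 13 lymphocyte markers none passed (median 0.05, sums from 8.72 to 13.2 at TN and from 9.64 to 13.3 in HS). Among 10 adipocyte markers 1 rose, the adipokine gene ADIPOQ, by 0.16 (adjusted p = 0.0384; list median -0.07, sums from 942 to 1029 at TN and from 883 to 1044 in HS). Of 5 red blood cell markers 2 were lower in HS, the haemoglobin gene HBB at -0.85 and the membrane skeleton gene EPB42 at -0.38 (adjusted p = 0.011 and 0.0294; list median -0.38, sums from 5.59 to 7.35 at TN and from 4.76 to 8.32 in HS). SLC4A1, at a log2 level of 12.17, weighs most in the red blood cell sum and had an HS minus TN of 0.06 (limma, adjusted p = 0.71). That sum, too, is not a measure of its list as a whole. No part of any list in the change of CYBA was tested.

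Of the rest of the oxidase family, 8 of 15 listed genes were measured and none passed for HS minus TN, with a median change of -0.16. They include the GTPase RAC1 at -0.08 (SE 0.048, adjusted p = 0.31). NOX4, another partner of p22phox, was not analysed here, and the NOX1 probe was too dim to be tested. Among 22 genes that act on the oxidase, 15 were measured and 2 rose, beside 5.17% of all tested probes that rose. They were VAV1, an activator of RAC GTPases in blood cells, by 0.28 (SE 0.086, adjusted p = 0.0331), and PIK3CG, the catalytic gamma subunit of phosphoinositide 3-kinase, by 0.24 (SE 0.073, adjusted p = 0.0347). The other PIK3CG probe, A_72_P470138, gave 0.07 (adjusted p = 0.612). The remaining 13, with SYK at 0.18 (adjusted p = 0.0886) and SPI1 at 0.06 (adjusted p = 0.546) among them, did not pass.

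Breed differences among these listed genes were singled out after their values were seen, beside 14.3% of all tested probes called for LW minus Creole. HVCN1, the proton channel that balances the charge moved by the oxidase, was lower in LW, with LW minus Creole at -0.67 on A_72_P049151 (SE 0.16, adjusted p = 0.00736) and at -0.44 on O4118 (SE 0.13, adjusted p = 0.0275). Of the 15 genes that act on the oxidase, 2 passed on their highest-level probe. The small GTPase RAP1A was higher in LW by 0.33 on A_72_P640270 (adjusted p = 0.0222), while its 8 probes ranged from -0.14 to 0.47. PIK3R5, a regulatory subunit of phosphoinositide 3-kinase, gave -0.93 on A_72_P723223 (adjusted p = 0.00139) and 0.78 on A_72_P232232 (adjusted p = 0.000687), so that its probes went opposite ways. None of the macrophage markers differed between LW and Creole at the threshold.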

How the data were processed

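SCAT RNA of 26 pigs was labelled with Cy3 and hybridised to one-colour Agilent arrays, and images were read by the authors with Agilent Feature Extraction 10.10.1.1. Per spot, the deposited scanner output gives median and mean pixel intensity, local background and a processed intensity, none scaled between arrays. The authors also deposited log2 quantile-normalized values for 44104 probes, used as an alternative. In their methods the authors updated the probe annotation by sequence comparison with Sscrofa11.1, an annotation not used here.

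Median intensities, without background correction, were quantile-normalized and log2-transformed (R 4.3.3 with limma 3.58.1). Non-uniform spots (at most 16 per array) were set missing and spots of a repeated probe averaged. The test took the 44703 probes that Feature Extraction marked as well above background on 8 or more arrays. Models were fitted with lmFit and eBayes (trend): HS minus TN with breed fixed, breed contrasts with temperature fixed, and 6 group means for changes within breeds and their interaction. Adjustment was Benjamini-Hochberg over all tested probes, threshold 0.05. Permutation tests used 100000 seeded resamples, within breed for differences in change and within group for correlations of residuals. On data simulated for HS minus TN over 44703 probes, 84% of changes of 0.5 and 94% of changes of 1.0 log2 were recovered. Only 200 probes were changed there, with independent normal noise. The simulation thus does not give the power for the smaller HS minus TN changes of the members. Genes were named through accessions (9604 probes), symbols (14312) and synonyms (207) of a RefSeq gene list for the pig assembly Sscrofa11.1, whose coordinates were not used, and 36182 probes stayed unnamed. Pen, slaughter day, father and mother, random effects in the model of the authors, are not in the labels and were left out. The number of arrays limits the precision, and p-values measure the spread between these pigs. The tests treated pigs as independent, although in the study pigs that shared a pen shared a temperature, and some were littermates. The p-values can therefore be too small.

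The genes and lists were chosen with earlier results of these data known. Each member probe is described; list genes past the threshold for HS minus TN are named by their highest-level probe, with the 3 most similar genes per member. Alternatives changed the background correction, scaling, filter, slide, breed term, array weights, probe averaging and the arrays used. One further gene of the oxidase family is not reported here.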

Additional observations from a re-analysis of the deposited data

Results flagged for a closer look

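By Dixon's test within groups of 4 or 5 pigs, 2 of 60 probe and group combinations were past the 95% critical value, where chance gives about 1 in 20. The test relates the gap of the highest or lowest pig to the range of its group, so a small gap in a tight group can pass. On the further CYBA probe, F1 TN pig 3 was highest at 13.13, with the nearest F1 TN pig at 12.96. On CYBB probe A_72_P574634, LW TN pig 3 was highest at 6.65, with the nearest LW TN pig at 6.32. The larger gap on A_72_P306223, with F1 TN pig 2 at 8.62 and the nearest at 7.34, was not past it (ratio 0.771).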

How the results depend on the processing

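The rise of CYBA on A_72_P035581 kept its call in every single-pig omission (0.40 to 0.45) and under other background corrections, scalings, filters, breed and slide terms and array weights. It was lost where all tested probes of the gene were averaged, the complementary-strand probe among them (0.14). That left 0 called genes among the members, and NCF4 was then -0.0352. Adding the further probes, chosen after seeing the data, gave 2 called probes. Where a result below changed, the cause was not tested.

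With normexp, 2 instead of 1 member calls were made within breeds and 1 instead of 2 for any breed difference, RAC2 in LW turned to 0.00180, and the difference in change between the CYBB probes turned to 0.00614. With the processed signal scaled to the 75th percentile, 0 members were called for LW minus Creole and 1 for any breed difference, NCF4 A_72_P130551 turned to -0.0402 for HS minus TN, CYBB A_72_P574634 to 0.0411 in F1, RAC2 to 0.0244 in LW, NCF4 O9600 to 0.0296 for LW minus Creole, the difference in change between CYBA and CYBB fell to 0.167 and that between CYBA and NCF1 to -0.103, the change of CYBB A_72_P147021 was below that of A_72_P574634 by a called difference of -0.246 (permutation p = 0.00765), the correlation of CYBA and NCF1 turned to 0.128, and that of CYBB and RAC2 was 0.486 (permutation p = 0.0385, unadjusted). With no filter, probes called were 0 in Creole and 114 in F1, and 1 member was called for any breed difference. With no breed term 3531 probes were called for HS minus TN. With slide as a fixed block, 3 probes were called in Creole, 4 in F1, 114 in LW, 0 for the interaction and 0 for F1 minus mid-parent, member calls were 0 for LW minus Creole and 0 within breeds, CYBA A_72_P306223 turned to -0.00304 in Creole, RAC2 to 0.0639 in LW and to -0.0133 for F1 minus mid-parent. With array weights, 98 probes were called in Creole, 381 in F1, 1283 in LW, 2 for the interaction and 10 for F1 minus mid-parent, A_72_P306223 turned to -0.0175 in Creole, RAC2 to 0.0403 in LW, and for LW minus Creole CYBB A_72_P574634 turned to 0.0104 and NCF4 O9600 to 0.00558.

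Leaving out 1 pig at a time gave 0 to 205 called probes in Creole, 0 to 494 in F1, 112 to 1137 in LW, 1 to 4 for the interaction and 3 to 50 for F1 minus mid-parent, and 0 to 1 called members for LW minus Creole, 0 to 2 for any breed difference and 0 to 2 within breeds. CYBA minus CYBB ranged from 0.197 to 0.290 and CYBA minus NCF1 from 0.175 to 0.269. Estimates that were not called changed sign in at least 1 omission: NCF4 A_72_P130551 for HS minus TN (-0.0296 to 0.0629); A_72_P306223 in Creole (-0.0695 to 0.0858), in F1 (-0.504 to 0.0478, positive only without F1 TN pig 2) and for F1 minus mid-parent (-0.0641 to 0.149); RAC2 in Creole (-0.0396 to 0.166) and LW (-0.155 to 0.0939); CYBB in F1 on A_72_P147021 (-0.189 to 0.0249) and A_72_P574634 (-0.135 to 0.0940), and on the latter for LW minus Creole (-0.0916 to 0.0315); NCF1 in F1 (-0.0239 to 0.129); and O9600 in LW (-0.0304 to 0.221) and for LW minus Creole (-0.0748 to 0.0581). So did the correlations of CYBA with CYBB (-0.000418 to 0.195) and NCF1 (-0.170 to 0.0650), of CYBB with NCF4 (-0.101 to 0.290), and of RAC2 with NCF1 (-0.0338 to 0.344) and NCF4 (-0.0342 to 0.267). By the unadjusted permutation p, CYBB with NCF1 rose above 0.05 in 8 omissions and CYBB with RAC2 fell below it in 5. No paired analysis was possible, because each array is a different pig and the labels do not say which pigs shared a litter. Tested probes near background, A_72_P146491 of NCF1 above all, limit what a change on them could show.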

Other observations

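The CYBA pair of opposite strands is not alone on the array: 849 of 60305 probes have their full reverse complement among the other probes. Both strands were tested for 172 such pairs. In 16 of them the probe with the higher level was called for HS minus TN, and in 4 of these 16 the partner was called too, 3 times in the same direction. The partner had the opposite sign in 6 of the 16 pairs and the same sign in 10. The median correlation between the strands of a pair over the 26 arrays was 0.15, and for CYBA it was -0.26. These are counts over probes of the same arrays, which are not independent of each other.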
